A study of Mus musculus with 18 samples.

Results

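The dorsal spinal cord of mice with an inflammation-free hindpaw was compared between a vector that kept the histone deacetylase HDAC4 in the nucleus (HDAC4 3SA) and a control vector (LacZ), using 6 of the 18 mice of the series. All mice were C57BL/6 (of the substrain C57BL/6N by the study's methods), 3 months old, and had received a recombinant adeno-associated virus (rAAV, serotype 1/2) in the dorsal horn at least 3 weeks earlier. The virus carried either rAAV-HDAC4 3SA, whose phosphorylation sites needed for nuclear export are mutated, or rAAV-LacZ, which encodes bacterial β-galactosidase. All 6 mice then received intraplantar saline, and RNA was taken from the L3–5 dorsal spinal cord 24 h after the injection, from 3 mice per vector. The other 12 mice carried HDAC4 wt (the unmutated enzyme) or received complete Freund's adjuvant (CFA), an irritant that inflames the paw, and they appear below only where their values stand beside those of the saline mice. The promoter that drives the transgenes is not given in the sources used here, no group without a vector was analysed here, and the protein made by each vector and any spread of virus beyond the dorsal horn were not measured by these data.

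Each group has 1 deposited value per gene, in FPKM (fragments per kilobase of transcript, scaled to the size of the library), estimated over its 3 mice. Values of single mice were not analysed here, so no SD, no test and no p-value can be given, and the depth of each library is unknown from these files. Each table holds the 2 groups of 1 vector, which is read here as a separate run and normalisation for each vector. Every difference below is therefore a description of 2 group values set side by side. Of 34579 loci, 34323 could be joined between the LacZ and the HDAC4 3SA tables by identifier, gene and position, and 17646 of these had a mean of 1 FPKM or more over both groups. Ratios were computed as log2 of (FPKM + 0.1) and centred on the median of the 10855 loci with a mean of 5 FPKM or more, which took off 0.0184. A locus was called higher or lower when the centred ratio reached 2-fold. The added 0.1 FPKM makes the ratio of a low gene smaller than its true ratio, and where a group is listed at 0 no ratio is given.

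HDAC4 is a class IIa histone deacetylase that moves between cytoplasm and nucleus. When it is phosphorylated it is held in the cytoplasm by 14-3-3 proteins, and when it is in the nucleus it binds MEF2 transcription factors and recruits corepressors, so that activity-dependent genes of neurons are held down. In the dorsal horn, excitatory and inhibitory interneurons process touch and pain signals from sensory fibres. Microglia, the resident macrophages of the spinal cord, respond to injury, infection and foreign nucleic acid by producing complement, cytokines and antigen-presenting molecules.

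Among all loci, 969 of 17646 (5.49%) were 2-fold or more higher in HDAC4 3SA and 570 (3.23%) were lower. When both groups were instead scaled to the same FPKM sum, the median of all loci moved to −0.17 and the split became 823 higher and 887 lower, so that the share of higher loci among those called was 48.1% in place of 63.0%. That sum includes the antibody segments, whose summed levels are given below, and scaling without them was not computed. The lower loci were unevenly spread over the strands. Loci lying on the strand of the gene they are named after, 13882 in number, held 702 higher (5.06%) and 80 lower loci (0.576%), and their split under sum scaling was 599 higher and 122 lower. Loci on the opposite strand of their named gene, 1442 in number, had a median log2 ratio of −0.54 and held 245 lower and 87 higher loci. The strand is not a column of the files and was inferred from the order of the locus identifiers. That order placed 6479 of 6570 genes of the plus strand (98.6%) and 6422 of 6520 genes of the minus strand (98.5%) as the GENCODE M21 annotation does. For this reason genes are described below at the locus on their own strand.

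**Figure D1:**
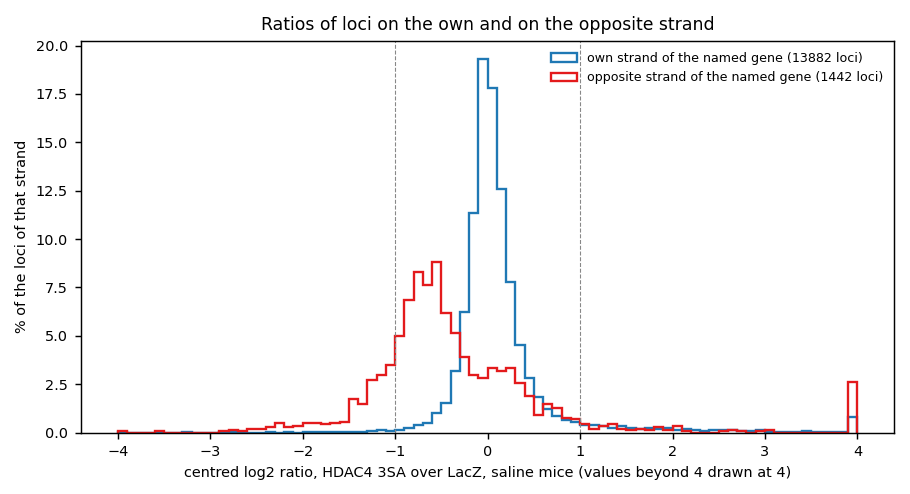
Share of loci (%, y axis) by centred log2 ratio of HDAC4 3SA over LacZ in saline mice (x axis, values beyond 4 drawn at 4), for loci on the strand of the named gene (blue, 13882 loci) and on the opposite strand (red, 1442 loci), with dashed lines at 2-fold. The blue curve peaks near 0, while the red curve is shifted to lower values, with a median of −0.54.

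The shift of opposite-strand loci was also seen where a gene had a locus on each strand. In 1289 such pairs the median log2 ratio was −0.57 on the opposite strand and 0.00 on the own strand. The opposite-strand locus was lower in 224 pairs, the own-strand locus in 5, and both in 1. The comparison of both vectors in CFA mice gave a median of −0.47 over 1446 opposite-strand loci, HDAC4 wt against LacZ in saline mice gave −0.50 over 1474, and CFA against saline within the LacZ table, whose groups were processed in 1 run, gave −0.04 over 1516. The shift was thus present where groups of separate runs were set side by side. Whether library strandedness, the separate runs or the vectors moved these loci was not tested.

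The 12 genes with the highest ratio among loci with a mean of 5 FPKM or more were Ly6f, Igkc, Igha, Jchain, Naip2, Hist1h4m, Tank, Was, Ighg3, Iglc1, Ly6c2 and Mzb1. Of these, 8 lay on the own strand, among them Ly6f at a locus of 280 bases. Another 2 (Naip2 and Tank) lay on the opposite strand and 2 (Hist1h4m and Was, at loci of 72 and 61 bases) on an undetermined one. The own-strand locus of Tank had 11.2 FPKM in LacZ and 12.5 FPKM in HDAC4 3SA, and that of Naip2 had 0.325 and 1.72 FPKM. Antibody chains and proteins of antibody-secreting cells (Igkc, Igha, Jchain, Ighg3, Iglc1 and Mzb1) were among the 12. All 12 were ranked by the ratio itself. At the ranked loci they had 0.205 FPKM or less in LacZ, so they reached the limit through HDAC4 3SA alone. The 12 genes with the lowest ratio held no own-strand locus, with 11 on the opposite strand and 1 undetermined. Fgf1, a fibroblast growth factor, led them with 11.5 FPKM in LacZ and 0.889 FPKM in HDAC4 3SA at its opposite-strand locus, while its own-strand locus stood at 60.0 and 60.4 FPKM. Rpn2, a subunit of the oligosaccharyltransferase, had 16.5 and 2.46 FPKM on the opposite strand, and 52.5 and 60.1 FPKM on its own. The others were Cyp39a1, Zfp280c, Grb2, Clasp1, Fndc4, Ctsf, Clgn, Btbd7, Fam179b and Tfrc. Among loci of 1 to 5 FPKM, the 5 highest (Cd36, Cdh20, Pydc3, Ikzf3 and Myom2) were all listed at 0 in LacZ, with 5.58 FPKM or less in HDAC4 3SA for all but Cd36 (7.57 FPKM, at a locus of 121 bases). Of these only Myom2, a protein of the muscle sarcomere, lay on its own strand, with 4.66 FPKM in HDAC4 3SA. The own-strand locus of Cdh20 had 11.7 FPKM in LacZ and 9.83 FPKM in HDAC4 3SA, and that of Cd36 had 0.654 and 2.24 FPKM. The 5 lowest were Pde1c, Kdm4a and Mapk10 on the opposite strand, and Tprg and Runx2 on their own. Runx2, a transcription factor of bone formation, stood at 1.88 FPKM in LacZ and 0.197 FPKM in HDAC4 3SA. Just inside the limit of 1 FPKM, 473 loci with means of 1 to 1.1 FPKM held 47 higher and 31 lower, and just outside it, 558 loci with means of 0.9 to 1 FPKM held 49 and 35.

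**Figure D2:**
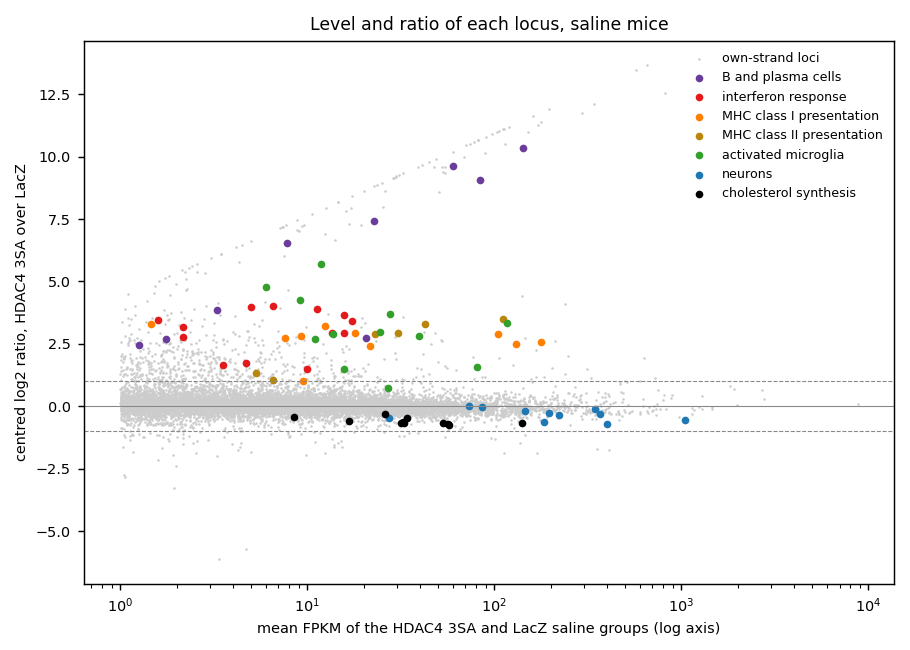
Centred log2 ratio of HDAC4 3SA over LacZ in saline mice (y axis) against the mean FPKM of both groups (x axis, log scale), with each own-strand locus as a grey point and the members of 7 gene lists coloured. Immune lists lie above 0 at all levels, neuronal genes (blue) lie near or below 0 at high levels, and cholesterol synthesis genes (black) all lie below 0.

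Hdac4 itself, the gene from which the vector's enzyme is derived, stood at 7.41 FPKM in LacZ and 8.86 FPKM in HDAC4 3SA, a log2 ratio of 0.24. In CFA mice the values were 7.72 and 8.81 FPKM, and in HDAC4 wt saline mice 10.1 FPKM. The species of the vector's cDNA is not given in the sources used here, so how far transgene RNA is counted at this locus is unknown and the value does not check the vector labels. The other class IIa enzymes and their partners held no called gene. Hdac5 had 34.1 FPKM in LacZ and 26.0 FPKM in HDAC4 3SA, Hdac7 had 5.84 and 6.95 FPKM, and Hdac9 had 7.17 and 6.49 FPKM. Mef2c, a partner of HDAC4 that microglia also express, was the member with the largest ratio, at 5.01 and 7.99 FPKM (log2 ratio 0.64). The median of 10 members was 0.05, a sign that turns when both groups are scaled to the same sum. The 6 other histone deacetylases had a median of −0.01 and ranged from Hdac8 (10.2 and 8.44 FPKM) to Hdac1 (15.9 and 19.0 FPKM).

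Gene lists were drawn up by cell type and pathway, 51 lists with 524 genes in all, of which 412 were compared, 68 were under a mean of 1 FPKM over both groups, 7 could not be joined and 37 had no locus of their own. Each gene was read at 1 locus that names it alone, and a low value there need not stand for the whole gene. Of the 412, 119 were 2-fold or more higher and 1 was lower, beside 5.06% and 0.576% of all own-strand loci. The lists were chosen with earlier results of these data known, so this contrast is no test of them. A gene that reached the limit of 1 FPKM only through the HDAC4 3SA group had to be higher, so the 374 compared members with 1 FPKM or more in LacZ are also counted, and 82 of these were higher. The share of all own-strand loci under the same restriction was not counted, here or for the single lists below. The dorsal spinal identity of the tissue was visible in both groups, with Slc17a6, Gad1, Tac1 and Hoxb8 among the genes expressed in each, at the levels given below. In bulk tissue, a change in the number of cells of a type cannot be told apart from a change in the RNA of each cell, and this holds for every list below.

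**Figure D3:**
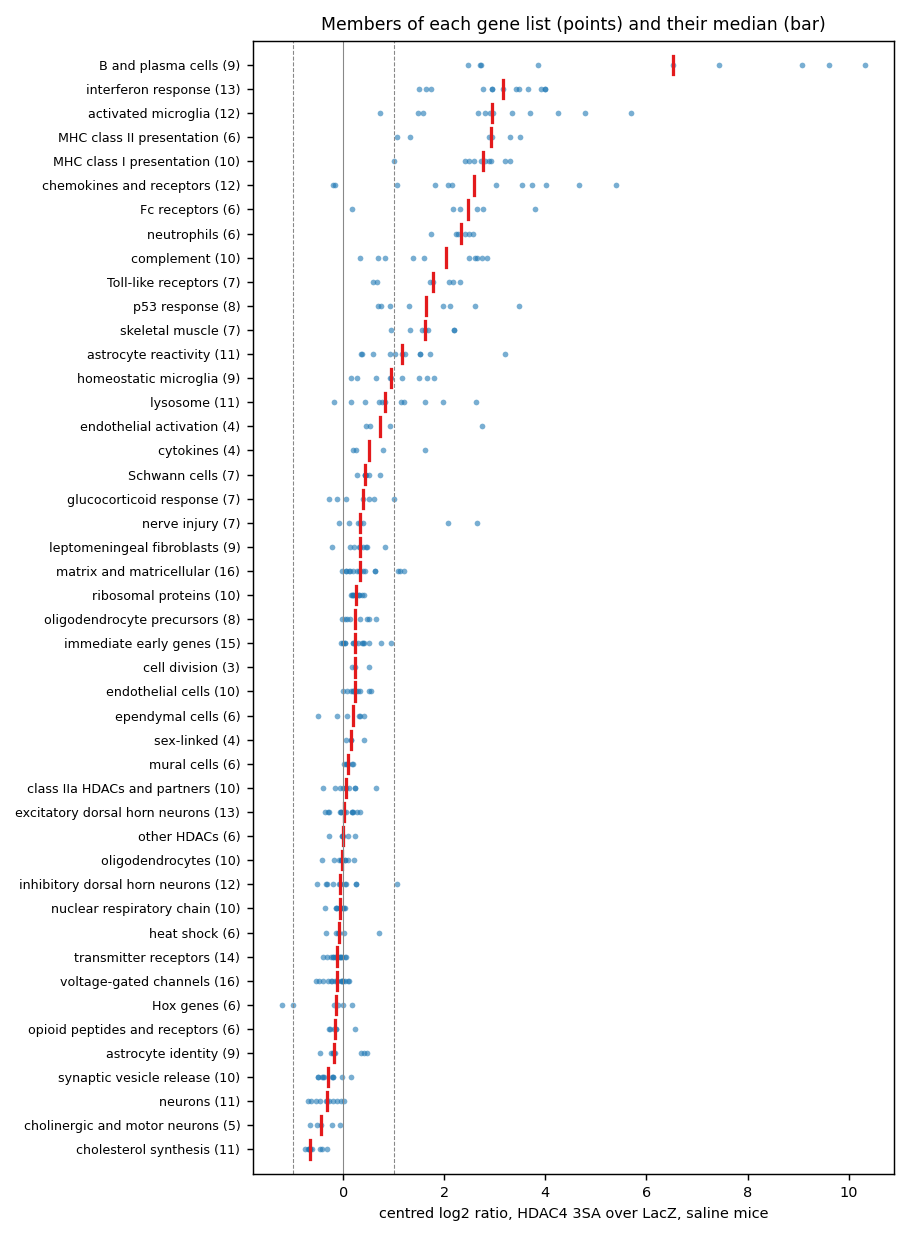
Centred log2 ratio of HDAC4 3SA over LacZ in saline mice (x axis) for every compared member (points) of the 46 lists with 3 or more compared members (rows, number of members in brackets), with red bars at the list's median and dashed lines at 2-fold. B and plasma cell, interferon, activated microglia and antigen presentation lists stand highest, and cholesterol synthesis (median −0.65) stands lowest.

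Microglial genes were higher in HDAC4 3SA, and those of the activated state had larger ratios than those of the resting state. Cst7, a cystatin induced in activated microglia, had 0.348 FPKM in LacZ and 23.4 FPKM in HDAC4 3SA, a log2 ratio of 5.70. Itgax, which encodes the integrin CD11c, had 0.323 and 11.6 FPKM (4.78), and Clec7a, a receptor for fungal glucans, had 0.819 and 17.5 FPKM (4.24). These 3 genes were under 1 FPKM in LacZ, and with 1 FPKM added the ratio of Cst7 was 4.16 and that of Itgax 3.24. Abundant members were higher as well. Lyz2, the lysozyme of myeloid cells, stood at 20.6 FPKM in LacZ and 213 FPKM in HDAC4 3SA, Cd68, a lysosomal protein of phagocytes, at 5.37 and 43.4 FPKM, and Trem2, a lipid receptor of microglia, at 2.85 and 19.0 FPKM. Over the list of activated microglia, 11 of 12 compared members were called higher with a median of 2.94, and 8 of the 9 with 1 FPKM or more in LacZ. Axl was the exception, with 20.1 and 33.7 FPKM. Apoe could not be joined, and Gpnmb, read at chr6:49067453-49068490, was under a mean of 1 FPKM.

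Homeostatic microglial genes had a median of 0.95, with 4 of 9 called higher. P2ry12, the ADP receptor of resting microglia, had 11.1 FPKM in LacZ and 13.6 FPKM in HDAC4 3SA, and the transcription factor Sall1 had 8.31 and 9.35 FPKM. Tmem119, a membrane protein of resident microglia, had 7.97 and 15.7 FPKM, just under 2-fold. The growth factor receptor Csf1r was called, at 23.1 and 52.9 FPKM, but not under sum scaling, which left 3 of 9 called. All 9 lay above 0, and 8 of 9 under sum scaling. Lysosomal genes had a median of 0.83, with 5 of 11 called (4 under sum scaling). Ctss, a cathepsin of myeloid cells, was called at 58.0 and 365 FPKM, while the broadly expressed Lamp1 had 289 and 326 FPKM.

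Complement genes had a median of 2.04, and 7 of 10 were called higher (6 of the 9 with 1 FPKM or more in LacZ). C1qa, a chain of the recognition molecule C1q, had 37.5 FPKM in LacZ and 254 FPKM in HDAC4 3SA. C4b, which carries the cascade forward, had 6.45 and 40.3 FPKM, and C3, the central component, had 8.29 and 22.1 FPKM. The regulator Serping1 stayed under 2-fold, at 14.4 and 25.9 FPKM. Among Fc receptors, which bind antibody, 5 of 6 were called with a median of 2.48 (4 of the 5 with 1 FPKM or more in LacZ). Fcer1g, their shared signalling chain, had 7.40 and 51.4 FPKM, whereas Fcgrt, the neonatal Fc receptor that recycles antibody, had 15.7 and 18 FPKM. The list of Toll-like receptor genes, which also holds the adaptor Myd88 and the co-receptor Cd14, had a median of 1.78 with 5 of 7 called, and 2 of the 4 with 1 FPKM or more in LacZ. Tlr7, the endosomal sensor of single-stranded RNA, had 0.652 and 3.67 FPKM, Tlr9, the sensor of unmethylated DNA, had 0.404 and 1.65 FPKM, and Tlr3, the sensor of double-stranded RNA, had 5.81 and 8.97 FPKM (log2 ratio 0.60, not called).

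Interferon response genes were higher without exception, 13 of 13, with a median of 3.16, and 8 of 8 among those with 1 FPKM or more in LacZ. Irf7, the transcription factor that amplifies type I interferon production, had 1.31 FPKM in LacZ and 21.3 FPKM in HDAC4 3SA (log2 ratio 3.90). Usp18, a protease that removes ISG15 and restrains interferon signalling, had 0.500 and 9.52 FPKM (3.99, and 2.79 with 1 FPKM added). Isg15, the ubiquitin-like modifier itself, had 3.51 and 28.0 FPKM (2.94). Bst2, which tethers budding virus to the cell, had 2.83 and 31.7 FPKM, and Ifit2, which binds viral RNA, had the smallest ratio of the list at 5.14 and 14.9 FPKM. Mx1 was under a mean of 1 FPKM, at 0.0538 and 1.70 FPKM, and 2 members had no locus of their own.

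The promoters of these genes were searched for the interferon-stimulated response element, spelled GAAANNGAAA, on both strands, in the RefSeq windows from 250 bases before to 50 bases after the gene start (build GRCm38.p6). The motif lay in 7 of 11 interferon response promoters (63.6%), beside 1079 of all 27025 promoters (3.99%) and 339 of 9343 promoters of genes compared on their own strand (3.63%). These genes are those of loci that name 1 gene, without predicted genes and antibody or T cell receptor segments. Of 409 promoters of such genes called higher, 44 (10.8%) held it, and of 28 promoters of genes called lower, 0 did. The 5 of the 7 interferon promoters whose match lies well before the gene start are shown, with every match in the window in capitals. Ifit1, Ifit3 and Bst2 hold 2 matches each, Isg15 holds 3 and Rsad2 holds 1, and the matches of Isg15 and Bst2 overlap. Each sequence is read in the direction of its gene, and a match on the other strand is printed as its complement in that direction. A match is a description of the letters and was not tested for binding.
Ifit1 (chr19:34640750-34640829, plus strand): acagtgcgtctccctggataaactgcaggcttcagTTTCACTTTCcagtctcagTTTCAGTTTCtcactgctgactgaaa
Ifit3 (chr19:34583338-34583417, plus strand): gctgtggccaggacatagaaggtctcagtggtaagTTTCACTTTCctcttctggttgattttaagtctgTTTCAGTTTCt
Isg15 (chr4:156200852-156200931, minus strand): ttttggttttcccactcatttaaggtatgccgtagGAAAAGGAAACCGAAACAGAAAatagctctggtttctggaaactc
Bst2 (chr8:71537558-71537637, minus strand): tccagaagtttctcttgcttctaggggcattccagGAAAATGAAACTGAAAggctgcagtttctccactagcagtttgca
Rsad2 (chr12:26456528-26456607, minus strand): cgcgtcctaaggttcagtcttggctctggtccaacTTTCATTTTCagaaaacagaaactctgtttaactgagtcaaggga

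Antigen presentation genes of both classes were higher. In class I, 10 of 10 were called with a median of 2.77 (9 of 10 under sum scaling, without Tap2). B2m, the light chain of class I molecules, had 50.1 FPKM in LacZ and 306 FPKM in HDAC4 3SA, and the heavy chain H2-K1 had 24.8 and 185 FPKM. The peptide transporter Tap1 had 2.21 and 16.4 FPKM, and Nlrc5, the transactivator of class I genes, had 0.186 and 2.74 FPKM. Heavy chain genes of this family are near-identical in part, so the split of reads among them is uncertain. In class II, 6 of 6 were called with a median of 2.92 (5 of 6 under sum scaling). Cd74, the invariant chain, had 17.8 and 204 FPKM, and H2-Aa had 7.65 and 77.3 FPKM. Ciita, the transactivator of class II genes, was under a mean of 1 FPKM, at 0.0861 and 0.453 FPKM.

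**Figure D4:**
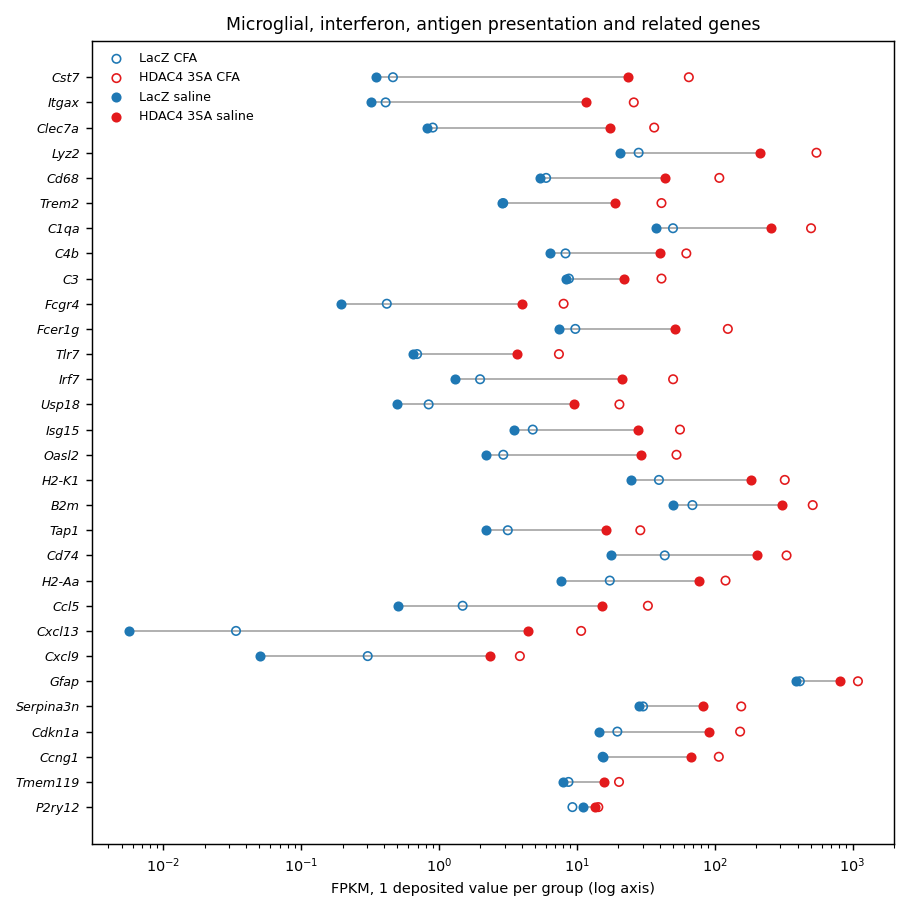
FPKM (x axis, log scale) of 30 genes of microglia, complement, interferon response, antigen presentation, chemokines, astrocyte reactivity and p53 response (rows), 1 deposited value per group: LacZ (blue) and HDAC4 3SA (red), saline mice filled and CFA mice open, with a line joining the saline pair. In every row the HDAC4 3SA saline value lies to the right of the LacZ saline value, by little for P2ry12 (11.1 and 13.6 FPKM) and most for Cxcl13 (0.00565 and 4.40 FPKM).

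Genes of antibody-secreting cells had the largest ratios of all lists. Igkc, the constant region of the kappa light chain (chr6:70718763-70729890, GRCm38), had 0.117 FPKM in LacZ and 283 FPKM in HDAC4 3SA. Igha, the constant region of IgA, had 0.0513 and 120 FPKM, and Jchain, which joins IgA and IgM into polymers, had 0.205 and 167 FPKM. LacZ was close to 0 for these genes, so their ratios depend on the 0.1 FPKM added, and the levels carry the difference. Ighm, the constant region of IgM, was the only compared member above 1 FPKM in LacZ, at 5.22 and 35.7 FPKM. All 9 compared members were called higher (median 6.53), and the other 5, among them Ms4a1, a surface protein of B cells before they secrete antibody, were under a mean of 1 FPKM and higher in HDAC4 3SA. Antibody variable segments were read apart from the lists. Of 65 compared heavy chain segments, 64 were called higher and 1 lower, and 46 were listed at 0 in LacZ. Only 1 of them had 1 FPKM or more in LacZ, and it was not called higher, so the others passed the limit through HDAC4 3SA and their count says nothing of its own. The summed level of all 120 joined heavy chain segments was 8.92 FPKM in LacZ and 8378 FPKM in HDAC4 3SA, and that of the 90 joined kappa segments (42 of 43 compared ones higher, 1 of the 2 with 1 FPKM or more in LacZ) was 24.7 and 13765 FPKM. Segments are short and alike in sequence, so their FPKM sums are no measure of transcript number.

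T and cytotoxic lymphocyte genes did not reach the limit, with 12 of 12 under a mean of 1 FPKM. All 12 were higher in HDAC4 3SA, among them Cd3g, a chain of the T cell receptor complex (0.0987 and 1.36 FPKM), Cd4 (0.0708 and 0.948 FPKM) and the granule protein Nkg7 (0.159 and 1.22 FPKM). Chemokine genes, whose products draw leukocytes, had a median of 2.59 with 10 of 12 called (9 under sum scaling), and 3 of the 5 with 1 FPKM or more in LacZ. Ccl5 had 0.503 FPKM in LacZ and 15.3 FPKM in HDAC4 3SA, Cxcl9 had 0.0501 and 2.35 FPKM, and Cxcl13, the attractant of B cells, had 0.00565 and 4.40 FPKM. The constitutive chemokines Cxcl12 (16.4 and 14.5 FPKM) and Cx3cl1 (18.7 and 16.8 FPKM) were not called. Cytokine genes had a median of 0.52 over 4 compared members, of which Tgfb1 (3.63 and 11.5 FPKM) was called. Il1b (0.0842 and 0.909 FPKM) and Tnf (0.0821 and 0.289 FPKM), both drivers of inflammatory pain, were under a mean of 1 FPKM.

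Neutrophil genes were higher in saline mice, 6 of 6 with a median of 2.34, but only S100a8 and S100a9 had 1 FPKM or more in LacZ, and both were called. S100a8, an abundant granulocyte protein, had 3.54 FPKM in LacZ and 20.6 FPKM in HDAC4 3SA, and its partner S100a9 had 4.96 and 27.0 FPKM. The summed level of the 6 genes was 11.0 and 61.6 FPKM. In CFA mice the same genes pointed the other way, with S100a8 at 36.8 FPKM in LacZ and 13.4 FPKM in HDAC4 3SA and a list median of −1.61. LacZ CFA was the highest of these 4 groups and LacZ saline the lowest. Elane, Cxcr2 and Ly6g, which also mark this lineage, were under a mean of 1 FPKM. Red blood cell genes, a sign of blood in the tissue, were read in 2 members, Hbb-bs at 137 and 339 FPKM (called) and Alas2 at 4.43 and 8.18 FPKM. The part of blood in the neutrophil and lymphocyte values was not tested.

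Reactivity genes of astrocytes were higher, while no identity gene was called. Gfap, the intermediate filament of astrocytes, had 389 FPKM in LacZ and 805 FPKM in HDAC4 3SA, and Vim had 52.0 and 119 FPKM. Serpina3n, a protease inhibitor of reactive astrocytes, had 28.3 and 82.7 FPKM, and the interferon-inducible Gbp2 had 2.32 and 22.4 FPKM. Of 11 reactivity genes, 7 were called (5 under sum scaling, without Gfap and Vim), with a median of 1.17. The 9 identity genes had a median of −0.17 and none was called, with Aqp4, the water channel of astrocyte endfeet, at 129 and 181 FPKM and Slc1a3, a glutamate transporter, at 38.4 and 28.4 FPKM. Oligodendrocyte genes were close to level (median −0.02, 0 of 10 called), from Mobp at 1103 and 834 FPKM to Cldn11 at 127 and 148 FPKM. Oligodendrocyte precursor genes had a median of 0.24 (0 of 8 called), with Cspg4, the NG2 proteoglycan, at 3.11 and 5.02 FPKM.

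Target genes of p53, a transcription factor activated by DNA damage and other stress, were among the highest lists outside the immune system, with a median of 1.64 and 5 of 8 called (4 of the 7 with 1 FPKM or more in LacZ). Cdkn1a, the cell cycle inhibitor p21, had 14.6 FPKM in LacZ and 90.7 FPKM in HDAC4 3SA. Ccng1 had 15.4 and 67.9 FPKM, Trp53inp1 had 3.8 and 15.4 FPKM, and the death receptor Eda2r had 0.210 and 3.39 FPKM. Mdm2, which degrades p53, was not called, at 16.3 and 26.8 FPKM. Genes of nerve injury had a median of 0.34 with 2 of 7 called, Atf3 (0.926 and 4.29 FPKM) and Sprr1a (0.234 and 2.03 FPKM), both under 1 FPKM in LacZ. Gap43, the growth cone protein, had 121 and 116 FPKM. Heat shock genes had a median of −0.09 (0 of 6 called), and Hspb1 stood apart with 8.10 and 13.5 FPKM. Glucocorticoid response genes had a median of 0.40, and of 7 only Sgk1, a kinase, was called, at 15.7 and 32.1 FPKM (not called under sum scaling). Cell division genes had a median of 0.23 over 3 members and 5 more were under a mean of 1 FPKM, including Mki67 at 0.136 and 0.444 FPKM.

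Most neuronal genes had ratios modestly below 0, and none was called. Snap25, a SNARE protein of synaptic vesicle fusion, had 1227 FPKM in LacZ and 861 FPKM in HDAC4 3SA. Nefl, a neurofilament of large axons, had 494 and 308 FPKM, and Nefh, another, had 222 and 144 FPKM. Rbfox3, the nuclear protein NeuN, was level at 71.6 and 73.7 FPKM. Of 11 compared neuronal genes, 10 lay below 0, with a median of −0.32, beside a median of 0.03 over all own-strand loci. Synaptic vesicle genes had a median of −0.31 with 9 of 10 below 0. Vamp1 had 408 and 292 FPKM and Cplx1 had 389 and 279 FPKM, while Vamp2 stood at 222 and 250 FPKM. Voltage-gated channel genes had a median of −0.13 with 13 of 16 below 0. Scn1a, a sodium channel of inhibitory neurons, had 57.0 and 39.9 FPKM, and Kcna2, a potassium channel of axons, had 65.1 and 47.0 FPKM, whereas Scn2a was at 18.5 and 20.0 FPKM. Transmitter receptor genes had a median of −0.12 (0 of 14 called), with the glycine receptor subunit Glrb at 102 and 78.5 FPKM. Nuclear genes of the respiratory chain had a median of −0.07 over 10 members and ribosomal protein genes one of 0.26 over 10, with 0 called in either. The 9 mitochondrially encoded genes had no locus of their own.

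Marker genes of the dorsal horn's interneuron types had medians near 0 in saline mice. Excitatory markers had a median of 0.01 over 13 members, with the transporter Slc17a6 at 80.8 FPKM in LacZ and 63.9 FPKM in HDAC4 3SA, and the peptide genes Tac1 (34.5 and 33.9 FPKM) and Sst (86.8 and 85.5 FPKM) level. Inhibitory markers had a median of −0.06 over 12. Slc6a5, the glycine transporter, had 95.2 and 67.7 FPKM and Gad1, which makes GABA, had 104 and 91.3 FPKM. Gal, which encodes the neuropeptide galanin, was the called member of these lists, at 10.2 and 21.6 FPKM. Under sum scaling Gal was not called and the excitatory median turned to −0.18. Opioid genes had a median of −0.16 (0 of 6 called), with the precursor Penk at 144 and 132 FPKM and the μ receptor Oprm1 at 2.93 and 2.41 FPKM. Cholinergic genes, which mark motor neurons, had a median of −0.44 over 5 members, from Slc5a7 (11.4 and 7.27 FPKM) to Chat (4.57 and 4.45 FPKM). Immediate early genes, the best known activity-dependent genes, had a median of 0.24 and 0 of 15 were called. Fos had 9.49 and 9.28 FPKM and Arc had 9.81 and 14.1 FPKM, and Junb came closest to 2-fold at 7.83 and 15.3 FPKM. The motif of MEF2 factors, spelled CTANNNNTAG, lay in 11 of 409 promoters of genes called higher (2.69%) and in 344 of 9343 promoters of compared genes (3.68%).

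**Figure D5:**
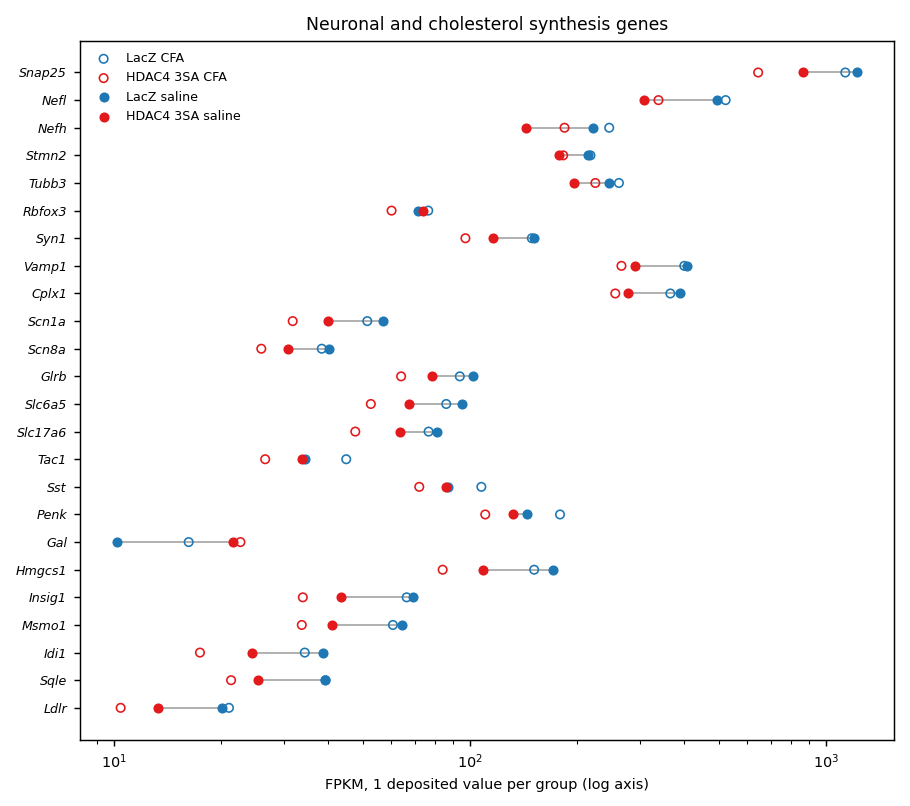
FPKM (x axis, log scale) of 24 neuronal and cholesterol synthesis genes (rows), 1 deposited value per group: LacZ (blue) and HDAC4 3SA (red), saline mice filled and CFA mice open, with a line joining the saline pair. For all 6 cholesterol synthesis genes drawn and for most neuronal genes the HDAC4 3SA value lies to the left, as for Snap25 (1227 and 861 FPKM) and Hmgcs1 (171 and 109 FPKM), while Gal lies to the right.

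Cholesterol synthesis was the list with the lowest median, −0.65, and all 11 members lay below 0. Hmgcs1, an early enzyme of the pathway, had 171 FPKM in LacZ and 109 FPKM in HDAC4 3SA, and Idi1, an isomerase of the isoprenoid branch, had 38.6 and 24.4 FPKM. No member reached 2-fold in saline mice. The list's median was −0.89 in CFA mice, with 2 members called lower, and −1.10 for HDAC4 wt against LacZ in saline mice, with 8 called lower, the latter sharing the LacZ mice of the main comparison. The sterol regulatory element, spelled TCACNCCAC, was found in 1 of 6 promoters of the list and in 388 of all 27025 (1.44%). That promoter is shown with the match in capitals.
Hmgcs1 (chr13:119690179-119690257, plus strand, GRCm38.p6): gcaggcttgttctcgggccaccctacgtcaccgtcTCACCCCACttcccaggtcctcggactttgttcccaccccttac

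Among own-strand genes that were lower, Myoc, a secreted glycoprotein, had 22 FPKM in LacZ and 8.42 FPKM in HDAC4 3SA (log2 ratio −1.39). Hoxd11, a patterning gene of the caudal cord, had 11.3 and 4.90 FPKM (−1.21), and was the only lower gene among all list members. Pclo, a scaffold of the presynaptic active zone, had 23.6 and 11.7 FPKM (−1.02). Myoc and Pclo were chosen after their values were seen, and Hoxd11 is a list member. Of the 6 compared Hox genes, which record position along the body axis, Hoxc11 was also near 2-fold at 5.83 and 2.94 FPKM (−0.98, and called lower under sum scaling), while Hoxb8 had 146 and 147 FPKM, and the list's median was −0.14. Hoxd11 and Hoxc11 mark cord segments caudal to those of Hoxb8, and their log2 ratios in CFA mice were −0.22 and −0.18. Outside the list and chosen after its values were seen, Hoxc12, another caudal gene, had 1.66 and 0.595 FPKM (−1.36) and a log2 ratio of −1.55 in CFA mice. Hoxa11 had 6.92 and 4.03 FPKM (−0.78), and 0.13 in CFA mice. Whether the dissected segments differed between groups was not tested.

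Among genes of tissue next to the dorsal horn, only the skeletal muscle list held called members. Skeletal muscle genes were higher, 6 of 7 called with a median of 1.62 (5 of the 6 with 1 FPKM or more in LacZ), as with the sarcomere proteins Acta1 (3.94 FPKM in LacZ and 12.5 FPKM in HDAC4 3SA) and Tnnt3 (4.75 and 15.5 FPKM), and their summed level over compared members was 20.6 FPKM in LacZ and 66.7 FPKM in HDAC4 3SA. In CFA mice the list's median was 0.21 and for HDAC4 wt it was −1.36. Schwann cell genes, the myelin of nerve roots, had a median of 0.44 with 7 of 7 above 0 and 0 called, and the summed level was 1012 and 1392 FPKM. Of 9 dorsal root ganglion genes only Prph was compared, at 20.8 and 15.6 FPKM, 5 were under a mean of 1 FPKM and 3 had no locus of their own. Leptomeningeal fibroblast genes had a median of 0.34 (0 of 9 called), with Lum at 5.62 and 10.2 FPKM and Dcn at 69.1 and 81.5 FPKM. Of the arachnoid barrier list only Slc22a8, an anion transporter, was compared, at 3.67 and 3.88 FPKM. The part of muscle, nerve root and meninges in these values was not tested.

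Endothelial genes had a median of 0.23 (0 of 10 called), with the tight junction gene Cldn5 at 23.9 FPKM in LacZ and 27.7 FPKM in HDAC4 3SA. Among endothelial activation genes, Icam1, which leukocytes bind, was called at 1.24 and 9.07 FPKM, while Vcam1 had 9.46 and 13.9 FPKM (list median 0.73 over 4). Mural cell genes had a median of 0.09 over 6 members and ependymal genes one of 0.19 over 6, with 0 called in either, and the mural median changes sign under sum scaling. Matrix genes had a median of 0.33 with 3 of 16 called, namely Fn1, fibronectin (7.47 and 16.7 FPKM), and the proteases Mmp2 (2.60 and 6.17 FPKM) and Mmp12 (1.92 and 4.24 FPKM), and 1 of 16 under sum scaling. Sex-linked genes were level, with Ddx3y at 25.1 and 28.2 FPKM and a median of 0.15 over 4, a sign that also turns under sum scaling.

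The same vector comparison in CFA mice, which uses other mice but the same 2 tables, held more called loci. There, 1465 of 17828 loci (8.22%) were higher and 562 (3.15%) lower, and on the own strand 1055 of 14033 (7.52%) were higher and 119 (0.848%) lower. The genes were compared at own-strand loci that name 1 gene, without predicted genes and antibody or T cell receptor segments. Of 544 such genes higher in saline mice, 542 could be read in CFA mice and 493 were called there too. This is 91.0% of those 542 genes and 67.1% of the 735 genes called in CFA mice that could be read in saline mice. Among lower genes, 17 of 34 (50.0%) were shared, which is 26.2% of 65. Median ratios of the activated microglia list were 2.94 in saline and 3.89 in CFA mice, those of the interferon list 3.16 and 3.56, and those of the MHC class II list 2.92 and 2.37. Neuronal genes had medians of −0.32 and −0.43, excitatory markers 0.01 and −0.51, and inhibitory markers −0.06 and −0.49.

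HDAC4 wt against LacZ in saline mice shares its 3 LacZ mice with the main comparison, so the values of the 2 comparisons are only set side by side. It held 1205 of 17756 loci (6.79%) higher and 618 (3.48%) lower, and 916 of 13969 own-strand loci (6.56%) higher and 122 (0.873%) lower. The median of activated microglia was 3.53, that of interferon genes 3.34, that of MHC class II genes 3.97 and that of neurons −0.53. Cst7 stood at 0.348 FPKM in LacZ, 35.7 FPKM in HDAC4 wt and 23.4 FPKM in HDAC4 3SA. Both ratios are read against that same LacZ value. For HDAC4 wt, the medians of B and plasma cells (6.79), MHC class I (3.48), complement (2.50) and p53 genes (1.69) lay above those of HDAC4 3SA. Those of astrocyte reactivity genes (1.03) and neutrophil genes (1.78) lay below. For CFA against saline within LacZ, whose saline mice are also shared, 75 of 13584 own-strand loci (0.552%) were higher and 48 (0.353%) lower. Itgax, for instance, had 0.323 FPKM in LacZ saline and 0.411 FPKM in LacZ CFA mice. It had 15.8 FPKM in HDAC4 wt saline and 11.6 FPKM in HDAC4 3SA saline mice. The differences between vectors were thus counted across separately normalised tables and that between treatments within 1 table, and vector and run cannot be told apart.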

How the data were processed

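The deposited tables hold 1 gene-level FPKM value per group, from strand-specific poly-A libraries of 3 mice per group. By the study's methods, a sequencing company made the analysis with Bowtie, TopHat, Cufflinks and Cuffdiff on GRCm38 (mm10). Each of the 3 tables holds the 2 groups of 1 vector, which is read here as a separate run for each vector. The tables also hold the study's fold changes, p-values and q-values of CFA against saline, which were not used. Loci were joined by identifier where gene and position matched and the status was OK or NOTEST in both tables (12 loci had another status and 244 failed on gene or position). The log2 ratio of (FPKM + 0.1) was centred on the median of loci with a mean of 5 FPKM or more, and kept where the mean was 1 FPKM or more. No test was possible with 1 value per group. The named genes are the 12 highest and 12 lowest loci naming 1 gene with a mean of 5 FPKM or more, the 5 highest and 5 lowest of 1 to 5 FPKM, without antibody or T cell receptor segments and predicted genes, and members of the lists. Myoc, Pclo, Hoxc12 and Hoxa11 fall outside this rule and were taken from a ranking of own-strand loci after their values were seen. The members and lists were chosen with earlier results of these data known. The strand of a locus was inferred after seeing the data. Alternatives changed the FPKM added, the minimum, the centring, the status, the loci and the fold. The centring and the calls were tested on simulated data. Python 3.11.15, numpy 2.4.6, pandas 2.3.3 and matplotlib 3.10.9 were used. Some genes of the lists are counted in their list but are not reported here by name.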

Additional observations from a re-analysis of the deposited data

Results flagged for a closer look

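In 2 of the 46 lists with 3 or more compared members, every compared member pointed one way in saline mice and the other way in CFA mice, and the difference was not tested. The neutrophil list had a median log2 ratio of HDAC4 3SA over LacZ of 2.34 in saline mice (6 of 6 members above 0) and −1.61 in CFA mice (6 of 6 below 0). The Schwann cell list had a median of 0.44 in saline mice (7 of 7 above 0) and −0.81 in CFA mice (7 of 7 below 0).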

How the results depend on the processing

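No paired analysis was possible because the tables hold 1 value per group and carry no replicate numbers, and for the same reason no mouse could be left out in turn. The count of higher loci (969) was 394 with a minimum of 5 FPKM, 2347 without a minimum and 1667 at 1.5-fold. The count of lower loci (570) was 320 with 1 FPKM added, 240 with a minimum of 5 FPKM, 1626 without a minimum, 887 with both groups scaled to the same sum, 338 with loci that name 1 gene and are no antibody or T cell receptor segment, and 1462 at 1.5-fold. In alternatives chosen after seeing the data, it was 80 on the own strand and 353 with loci of 500 bases or more, and own-strand loci held 119 of the 562 lower loci in CFA mice and 122 of the 618 for HDAC4 wt. Among list medians, B and plasma cells (6.53) had 7.85 with nothing added, 3.93 with 1 FPKM added, 8.25 with a minimum of 5 FPKM, 3.65 without a minimum and 5.65 with status OK. With 1 FPKM added, neutrophils had 1.64 and chemokines 1.8. With a minimum of 5 FPKM, Toll-like receptors had 0.67 and chemokines 0.99, and without a minimum cytokines had 1.26. The cause of these moves was not tested. In the other 399 readings of a list median under an alternative it moved by less than 0.58 on the log2 scale. Of the single genes and list members, 75 moved by more with 1 FPKM added and 15 with nothing added, and no called value changed direction. Low genes limit the precision, since the files hold no read counts; the methods give only a minimum read number for the libraries.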
